A study of Homo sapiens with 8 samples.

Results

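The SRC, PTK6 and FAK family kinases are 10 of the 20531 genes listed in the deposited tables, taken by gene symbol. They are SRC, YES1, FYN, LYN and LCK of the SRC family, FRK, PTK6 and SRMS, which are related to it, and PTK2 and PTK2B, which encode FAK and PYK2. RNA with a poly(A) tail was measured by sequencing in 2 established human breast cancer lines with HER2 amplification, SKBR-3 and BT474m1. SKBR-3 is negative for the estrogen and the progesterone receptor, whereas BT474m1, which was derived from BT474, is positive for each. Each line was grown for 48 h with the vehicle DMSO, with 300 nM lapatinib, which blocks EGFR and HER2, with 300 nM JQ1, which displaces BET bromodomain proteins from acetylated chromatin, or with both drugs. Each of the 8 groups held 1 library, so no difference could be set against a spread between cultures, and no p-value is given.

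These kinases are non-receptor tyrosine kinases, which pass on signals from receptors and adhesion sites rather than being receptors themselves. SRC family kinases carry a lipid anchor, an SH3 and an SH2 domain and a kinase domain, and are held inactive when CSK phosphorylates their tail. FAK gathers at integrin adhesions and binds SRC, after which the pair phosphorylates scaffolds such as p130Cas (BCAR1) and paxillin. PTK6, also called BRK, lacks the lipid anchor and is known from breast tumors, where it has been linked to signaling from HER2.

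Values are normalised counts, for which the authors set the upper quartile of each library to 1000. A change is taken on log2(value + 1), and genes were called at 2-fold or more in either direction among the 14429 genes with a value of at least 10 in at least 1 library. The 95% intervals come from the recovered read counts by the exact Clopper-Pearson method, describe the ratio of reads, and cover counting error only. "Rose" and "fell" are used for a called change whose interval excluded no change. Of the 10 kinases, 9 passed the filter, and LYN passed it only through BT474m1, where it is higher. In bulk RNA, fewer cells of a kind and less RNA per cell cannot be told apart.

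Depth ran from 21420113 to 34112380 reads on genes. In SKBR-3 with JQ1, the 20 highest genes took 14.0% of the summed values, the highest share of the 8 libraries, and the summed level of the 5 luminal epithelial markers was 507031 there against 161476 with DMSO. The keratins KRT8, KRT18 and KRT19 made up that rise, with log2 fold changes of 1.84, 1.82 and 1.47, whereas EPCAM was at -0.15 and CDH1 at -0.57. CDH1, which encodes E-cadherin, was nearly absent from SKBR-3 (4.29, 6.13, 2.58 and 15.1 with DMSO, lapatinib, JQ1 and both drugs) and stood between 19413 and 24373 in BT474m1, where the 5 markers summed to between 83428 and 121175. Of the 9 blood cell markers, 4 to 6 were at 0 in each library, CD2 was at 0 in all 8, and their sum lay between 5.19 and 100.2, with CSF1R giving 83.8 of the highest sum. In SKBR-3 the value of CSF1R was 10.3 with JQ1 (log2 fold change -2.91) and 7.57 with both drugs (-3.31), so that this marker was lower with JQ1 there, as were SRC and PTK6. Of the 7 fibroblast markers, 2 to 5 were at 0 and the sum lay between 30.3 and 1263, most of it COL1A1. COL1A1 in BT474m1 was at 1253 with DMSO, 394 with JQ1 (-1.67) and 337 with both drugs (-1.89). In SKBR-3 it was at 124, 81.2 (-0.60) and 24.1 (-2.32), and with lapatinib at 35.2 (-1.79). THY1, the other fibroblast marker that passed the filter, went the other way in SKBR-3, at 3.58 under DMSO and 50.9 under JQ1 (3.50), and the summed level of the list was 129 and 132 in these libraries. The part of these differences in the results was not tested.

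**Figure D1:**
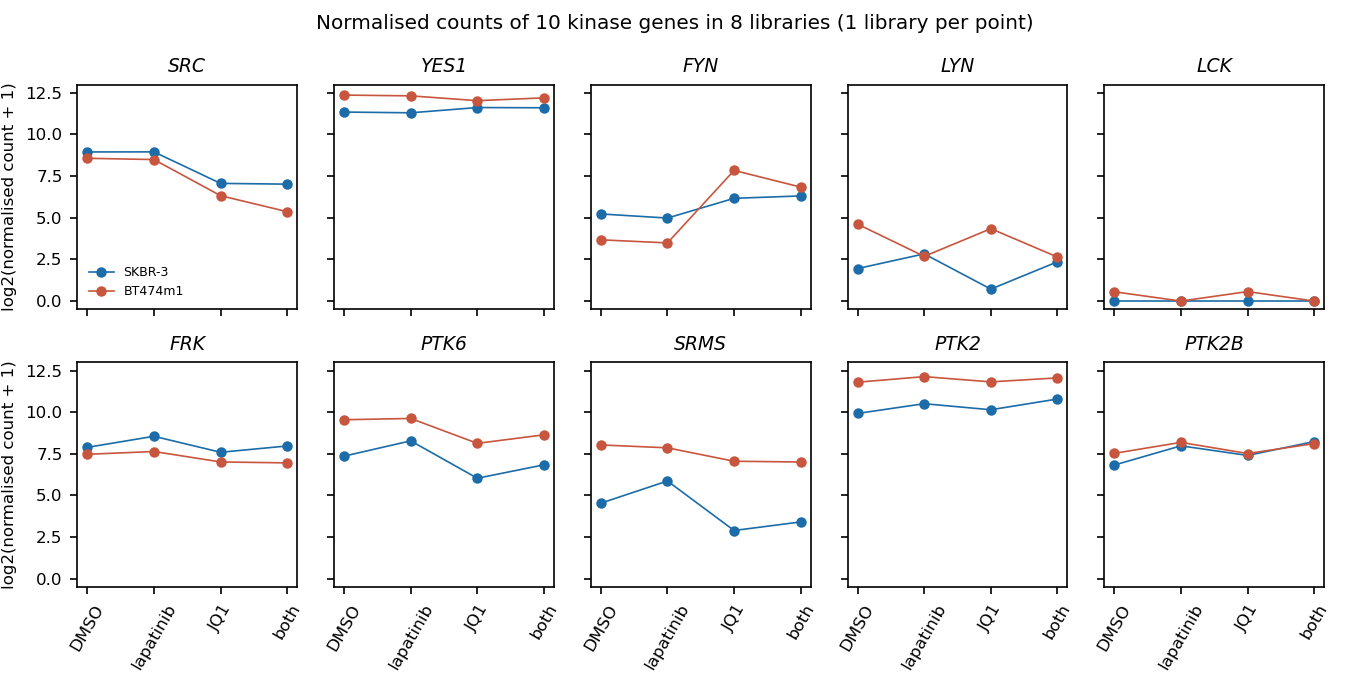
Level of each kinase gene in each of the 8 libraries, as log2(normalised count + 1) on the vertical axis, for SKBR-3 (blue) and BT474m1 (red) with DMSO, lapatinib, JQ1 or both drugs; each point is 1 library and lines only join the libraries of a line. SRC is lower with JQ1 and with both drugs in each line, and FYN is higher there.

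SRC, the founding member of the family, was the SRC family kinase that fell in both lines with JQ1. Its normalised count in SKBR-3 was 494 under DMSO, 495 under lapatinib, 133 under JQ1 and 129 with both drugs. The BT474m1 libraries had 379, 360, 79.2 and 40.2 in the same order. In each line the libraries without JQ1 and those with JQ1 did not overlap, and no SRC value with JQ1 exceeded 133.

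The log2 fold change of SRC with JQ1 was -1.89 in SKBR-3 (interval -2.13 to -1.67) and -2.24 in BT474m1 (interval -2.51 to -2.01). Lapatinib left it at 0.00 in SKBR-3 (interval -0.15 to 0.16) and -0.08 in BT474m1 (interval -0.23 to 0.08). With both drugs it fell by 1.93 on the log2 scale in SKBR-3 and was at -3.20 in BT474m1. Adding lapatinib to JQ1 gave a further -0.96 in BT474m1 (interval -1.41 to -0.56), short of the 2-fold call, and -0.04 in SKBR-3 (interval -0.34 to 0.25).

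FYN, a SRC family kinase that also acts in T cell and neuronal signaling, went the other way. In SKBR-3 its normalised count was 36.5 under DMSO, 30.6 under lapatinib, 70.9 under JQ1 and 78.4 with both drugs. The BT474m1 values were 11.8, 10.2, 229 and 114, which rest on 25, 17, 473 and 195 reads. FYN was higher in the libraries with JQ1 than in those without it in each line, and the gap was wider in BT474m1.

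FYN rose with JQ1 in BT474m1 by a log2 fold change of 4.17 (interval 3.70 to 4.92), a ratio of 19.4. Since its DMSO level is low, this size depends on the pseudocount, and with 10 in place of 1 the change was 3.45 with JQ1 and 2.51 with both drugs. In SKBR-3 the change was 0.94 (interval 0.47 to 1.47), just under the 2-fold call, and 1.03 under median of ratios scaling, which passes it. With both drugs FYN rose by 1.08 in SKBR-3 and 3.17 in BT474m1, on the log2 scale, although scaling to equal totals takes the SKBR-3 change to 0.997 and a pseudocount of 10 takes it to 0.93, under the call. In BT474m1 the normalised count with both drugs was 0.498 times that with JQ1, a log2 interval of -1.26 to -0.76 at the edge of the call, which scaling to equal totals (-0.96) and a pseudocount of 10 (-0.95) end.

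Per kb of transcript, the level of FYN stood at 0.0411 times that of SRC in BT474m1 with DMSO and 3.81 times with JQ1. In SKBR-3 the same ratio went from 0.0977 to 0.706. The order of these genes therefore turned with JQ1 in BT474m1, whereas in SKBR-3 SRC still had the higher value with JQ1 and with both drugs, the latter with an interval of the log2 ratio (-0.03 to 0.66) that did not exclude equal levels.

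The RefSeq promoter table of GRCh38.p14 held entries for 4 of the kinases, YES1, FYN, LCK and FRK. The 250 bases before 1 of the 4 FYN starts, the one whose window holds no FYN exon, are shown because FYN is the member that rose most with JQ1, and those before the FRK start because FRK, on the same chromosome and also on the minus strand, was never called. FYN lies at chr6:111873453-111873702 and FRK at chr6:116060892-116061141, both on the minus strand and written 5′ to 3′. Capitals mark a GC box (GGGCGG on either strand) or a CCAAT box (CCAAT on either strand).
FYN: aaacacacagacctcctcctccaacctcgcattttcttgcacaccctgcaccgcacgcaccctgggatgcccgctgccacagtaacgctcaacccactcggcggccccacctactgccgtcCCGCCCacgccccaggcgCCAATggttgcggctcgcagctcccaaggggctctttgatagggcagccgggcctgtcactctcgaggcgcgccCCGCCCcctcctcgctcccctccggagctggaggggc
FRK: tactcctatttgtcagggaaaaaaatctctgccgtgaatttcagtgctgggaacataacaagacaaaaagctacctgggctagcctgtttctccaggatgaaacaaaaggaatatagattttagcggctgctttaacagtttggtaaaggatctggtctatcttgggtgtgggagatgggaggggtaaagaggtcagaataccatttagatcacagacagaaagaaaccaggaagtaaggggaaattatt
The FYN window holds GC boxes that begin 129 and 37 bases before the start and a CCAAT box at 111 bases, with 68.8% G and C and 20 CpG. The FRK window holds neither motif, with 41.6% G and C and 2 CpG. Of the 35116 windows of that length in the table, 42.6% hold a GC box and 32.0% a CCAAT box, so that both are common. The forms GTAAACA and GTCAACA of the FOX motif, the E-box CACGTG, the TATA box TATAAA and the AP-1 motif TGANTCA were also searched on both strands, and none is in these windows. They occur in 2.98%, 1.95%, 6.34%, 10.7% and 6.57% of all windows. The difference between FYN and FRK depends on the start, since the window of the second FYN start holds 8 GC boxes (80.8% G and C) and those of the third and the fourth hold no motif searched (38.0% and 45.6%). The FYN window overlaps an exon of a long non-coding RNA, and which FYN start these cells use was not tested.

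YES1, a broadly expressed SRC family kinase, was the most abundant of the 10 per length. Its normalised count in SKBR-3 was 2603 under DMSO, 2522 under lapatinib, 3139 under JQ1 and 3108 with both drugs. Those of BT474m1 were 5274, 5106, 4180 and 4699. It was never called within a line, and its values with JQ1 lay above DMSO in SKBR-3 and below it in BT474m1, with log2 fold changes of 0.27 and -0.34.

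LYN and LCK are kinases known mainly from blood cells, and LCK in both lines and LYN in SKBR-3 were at or near the limit of detection. LYN had 4, 8, 1 and 6 reads in SKBR-3 with DMSO, lapatinib, JQ1 and both drugs, which are normalised counts of 2.86, 6.13, 0.644 and 4.13. The largest difference between SKBR-3 and its DMSO library, with JQ1, had an interval from -7.77 to 1.19 on the log2 scale and was not detectable at this depth.

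In BT474m1, LYN had normalised counts of 23.6, 5.42, 19.3 and 5.25, from 50, 9, 40 and 9 reads. It fell there with lapatinib (log2 fold change -1.94, interval -3.33 to -1.08) and with both drugs (-1.98, interval -3.38 to -1.13). With a pseudocount of 10 these changes were -1.12 and -1.14, and a filter at 100 leaves LYN out. The 2 libraries with lapatinib were below the 2 without it, and only the latter reached the filter value of 10. These calls therefore start from the libraries that let LYN through the filter. LCK had 0 reads in 6 libraries and 1 read in BT474m1 with DMSO and with JQ1. A count of 0 allows up to 3 reads, 1.75 to 2.30 units in those 6 libraries.

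PTK6 fell with JQ1 in both lines. Its normalised count in SKBR-3 was 163 under DMSO, 309 under lapatinib, 64.4 under JQ1 and 113 with both drugs. BT474m1 had 746, 787, 279 and 398. In each line the libraries with JQ1 were below those without it, and within the pair with JQ1 the one that also had lapatinib was higher.

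On the log2 scale the change of PTK6 with JQ1 was -1.33 in SKBR-3 (interval -1.69 to -0.996) and -1.42 in BT474m1 (interval -1.56 to -1.28). With lapatinib it was 0.92 in SKBR-3 (interval 0.68 to 1.16) and 0.08 in BT474m1 (interval -0.03 to 0.18). With both drugs against DMSO the change was called in neither line, at -0.52 in SKBR-3 (interval -0.82 to -0.23) and -0.91 in BT474m1 (interval -1.04 to -0.78). Both drugs against lapatinib alone gave -1.44 in SKBR-3 and -0.98 in BT474m1, the first of which is past 2-fold. Both drugs against JQ1 alone gave 0.81 in SKBR-3 (interval 0.45 to 1.19) and 0.51 in BT474m1 (interval 0.35 to 0.68).

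SRMS, a little studied relative of PTK6 that also lacks the lipid anchor, followed the same order in SKBR-3 at a lower level. Its normalised count there was 22.2 under DMSO, 57.4 under lapatinib, 6.44 under JQ1 and 9.63 with both drugs, from 31, 75, 10 and 14 reads. The level in BT474m1 was 261, 231, 132 and 128. The 2 libraries of each line with JQ1 were below the 2 without it.

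SRMS rose with lapatinib in SKBR-3 (log2 fold change 1.33, interval 0.75 to 2.03), and the change in BT474m1 was -0.17 (interval -0.36 to 0.02). It fell with JQ1 in SKBR-3 (-1.64, interval -2.98 to -0.72), and the change in BT474m1 was -0.98 (interval -1.20 to -0.77), just under the call, which scaling to equal totals takes it past. With both drugs it fell in each line, by 1.13 and 1.02 on the log2 scale, although median of ratios scaling takes the SKBR-3 change to -0.997, under the call. A pseudocount of 10 ends all 3 of these calls, at -0.97 for JQ1 in SKBR-3 and -0.71 and -0.98 for both drugs in SKBR-3 and BT474m1. PTK6 and SRMS are neighbors on chromosome 20 on the same strand, with no exon of either shared with another listed gene, and the ratio of their normalised counts lay between 5.39 and 11.8 in SKBR-3 and between 2.11 and 3.40 in BT474m1.

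FRK, an epithelial kinase related to the SRC family, was never called. Its normalised count was 236, 374, 192 and 250 in SKBR-3 with DMSO, lapatinib, JQ1 and both drugs, and 176, 198, 128 and 123 in BT474m1. Lapatinib left it 0.67 higher on the log2 scale in SKBR-3 (interval 0.46 to 0.88) and at 0.17 in BT474m1 (interval -0.05 to 0.39). Both drugs against lapatinib gave -0.58 and -0.68, with intervals that excluded no change.

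PTK2B, which encodes PYK2, the calcium-responsive relative of FAK, rose with lapatinib in SKBR-3. Its normalised count there was 112 under DMSO, 251 under lapatinib, 168 under JQ1 and 301 with both drugs. The BT474m1 libraries gave 183, 290, 182 and 276. The libraries with lapatinib were above those without it in each line.

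The change of PTK2B with lapatinib was 1.15 on the log2 scale in SKBR-3 (interval 0.88 to 1.44) and 0.66 in BT474m1 (interval 0.47 to 0.86), the latter under the call. With JQ1 it was 0.58 and -0.01, and with both drugs 1.41 and 0.59. Adding JQ1 to lapatinib moved it by 0.26 in SKBR-3 (interval 0.05 to 0.47) and -0.07 in BT474m1 (interval -0.26 to 0.11), whereas PTK6 and SRMS stood below their lapatinib levels.

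PTK2, which encodes FAK itself, had normalised counts of 970, 1455, 1131 and 1769 in SKBR-3 and 3560, 4492, 3608 and 4262 in BT474m1. It was never called within a line, and the libraries with lapatinib were again above those without it in each line. The change with lapatinib was 0.58 on the log2 scale in SKBR-3 (interval 0.48 to 0.69) and 0.34 in BT474m1 (interval 0.29 to 0.38). With both drugs it reached 0.87 in SKBR-3 and 0.26 in BT474m1, and under median of ratios scaling the former is 1.01.

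**Figure D2:**
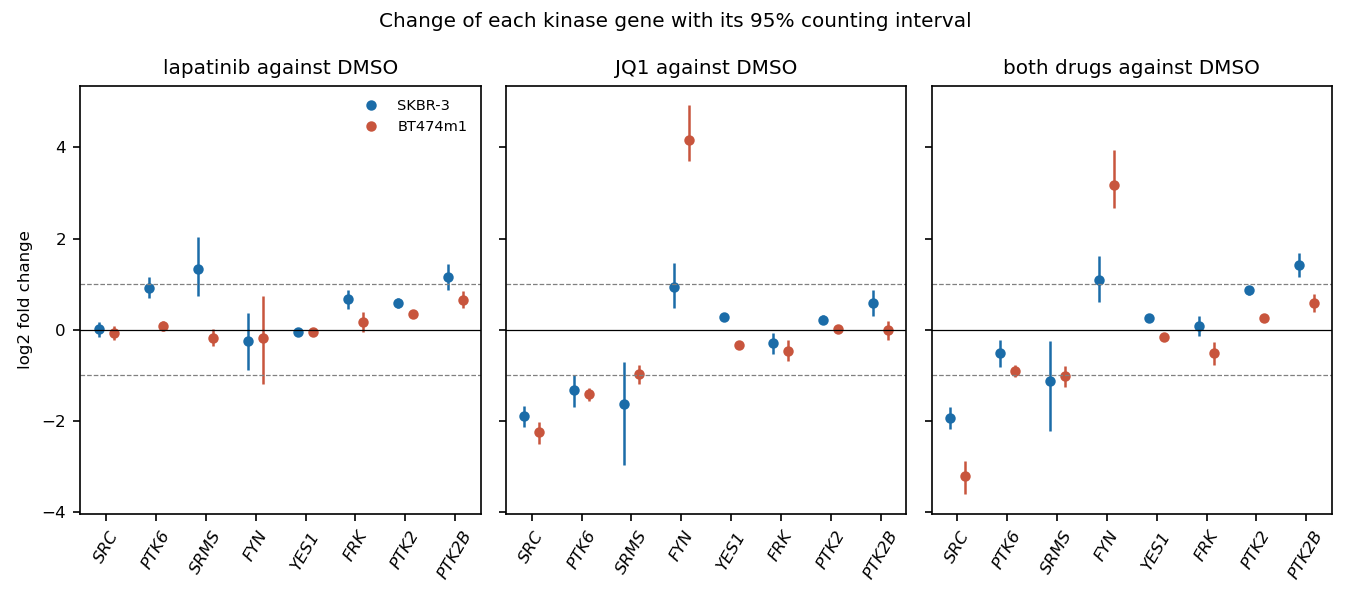
Log2 fold change (vertical axis) of 8 kinase genes with lapatinib, JQ1 or both drugs against DMSO, in SKBR-3 (blue) and BT474m1 (red); bars are 95% counting intervals, dashed lines mark 2-fold, and all 3 panels of a line share its DMSO library. SRC and PTK6 lie below the lower dashed line with JQ1 in both lines, and FYN reaches 4.17 in BT474m1.

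Counted over the kinases that passed the filter, the calls are few and are read against all genes. With lapatinib, 2 of 9 were raised in SKBR-3 (SRMS and PTK2B), where 11.1% of all genes were, and 0 were lowered, against 9.44%. In BT474m1, 0 were raised, against 14.0%, and 1 was lowered (LYN), against 8.06%. LYN was kept only through libraries without lapatinib, and a filter at 100, which leaves it out, gave 0 lowered. The median of the 9 was 0.67 in SKBR-3 and -0.05 in BT474m1, on the log2 scale, beside 0.05 and 0.07 over all genes.

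With JQ1, 4 of 9 were lowered in SKBR-3 (SRC, PTK6, SRMS and LYN, the last on 1 read against 4), where 11.8% of all genes were, and 0 were raised, against 3.75%. A pseudocount of 10 left 2 lowered there, SRC and PTK6. In BT474m1, 2 were lowered (SRC and PTK6), against 11.8%, and 1 was raised (FYN), against 4.81%. The medians were -0.29 and -0.34, beside -0.08 and -0.06 over all genes.

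With both drugs against DMSO, 2 were raised in SKBR-3 (FYN and PTK2B), against 10.8% of all genes, and 2 were lowered (SRC and SRMS), against 20.8%. In BT474m1, 1 was raised (FYN), against 14.2%, and 3 were lowered (SRC, SRMS and LYN), against 15.3%. With a filter at 100, which leaves LYN out, 2 were lowered there. The lowered share in SKBR-3 is near that of all genes.

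Against lapatinib alone, both drugs raised 1 in SKBR-3 (FYN), against 3.22%, and lowered 3 (SRC, PTK6 and SRMS), against 16.2%. In BT474m1, 1 was raised (FYN), against 5.2%, and 1 was lowered (SRC), against 12.5%. Against JQ1 alone, 1 was raised in SKBR-3 (LYN, on 6 reads against 1), against 9.79%, and 0 were lowered, against 12.3%. In BT474m1, 0 were raised, against 12.4%, and 2 were lowered (FYN and LYN), against 7.27%.

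If the drugs acted additively on the log2 scale, the value with both would equal the sum of the lapatinib and JQ1 changes, all of which share a DMSO library. SRC in BT474m1 lay below that sum (departure -0.88, approximate interval -1.32 to -0.45), and in SKBR-3 its departure was -0.05 (interval -0.37 to 0.28). For PTK6 the departure was 0.44 in BT474m1 (interval 0.24 to 0.63) and -0.11 in SKBR-3 (interval -0.54 to 0.32). In BT474m1 the intervals of YES1 (departure 0.22, interval 0.16 to 0.28) and PTK2 (-0.10, interval -0.16 to -0.03) also excluded 0, and in SKBR-3 no interval did. No kinase departed by 2-fold: 3.9% of all genes in SKBR-3 and 4.72% in BT474m1 lay that far above the sum, and 7.58% and 4.73% that far below it.

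The lines also differed in the levels of these kinases. With DMSO, SRMS was 11.7 times as high in BT474m1 as in SKBR-3 (log2 difference 3.50, interval 3.03 to 4.13), PTK6 was 4.57 times as high (2.19) and PTK2 3.67 times (1.87, interval 1.79 to 1.96). LYN (2.67, interval 1.60 to 4.97) and YES1 (1.02, interval 0.96 to 1.07) were also called higher. LYN passed the filter only through BT474m1, with 4 reads in SKBR-3, so its call is drawn from the line that let it through. With a pseudocount of 10 the difference of LYN was 1.38. FYN was lower in BT474m1 (-1.55, interval -2.38 to -0.91). These are 5 of 9 higher and 1 lower, where 26.8% of all genes were higher and 15.6% lower. With a filter at 100, which leaves LYN out, 4 were higher and 1 lower.

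SRC (-0.38), FRK (-0.42) and PTK2B (0.70) differed by less than 2-fold between the lines, with intervals that excluded no difference. Under median of ratios scaling, which shifts the median of all genes in this comparison by -0.15, YES1 was 0.87 higher and no longer called, and scaling to equal totals (0.99) also ended its call. Whether both lines shared a sequencing run is not stated in the labels, so that line and run cannot be told apart.

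Per kb of the longest transcript, the same 2 genes led in every library. YES1 was highest and PTK2 second in 8 of 8 libraries, with 44.9% to 66.5% and 19.6% to 39.2% of the summed level of the 10 genes. SRC took 10.7% of the sum in SKBR-3 with DMSO and 2.72% with JQ1, and in BT474m1 it took 3.46% and 0.888%. PTK6 had rank 3 in all 4 libraries of BT474m1.

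Some neighbors in this order did not differ beyond the counting error. In SKBR-3 these included PTK6 and SRC with lapatinib (105 and 103 per kb), SRC and PTK6, and PTK6 and FYN, with JQ1 (27.7, 21.8 and 19.5 per kb), and SRC and FYN, and FYN and FRK, with both drugs (26.8, 21.6 and 18.7 per kb). In BT474m1 they included LYN and FYN with DMSO (4.01 and 3.25 per kb), PTK2B and SRMS with lapatinib (61.5 and 56.7 per kb), and FYN with SRMS (both 31.3 per kb) and FRK with SRC (9.21 and 8.39 per kb) with both drugs. LYN and LCK were also inseparable in 6 libraries. The place of FRK depends on the length used, since its longest transcript has 13363 bases and its coding sequence 1515. Per coding kb, SRC (298) and PTK2 (295) were close in SKBR-3 with DMSO, and PTK2 was not second there.

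**Figure D3:**
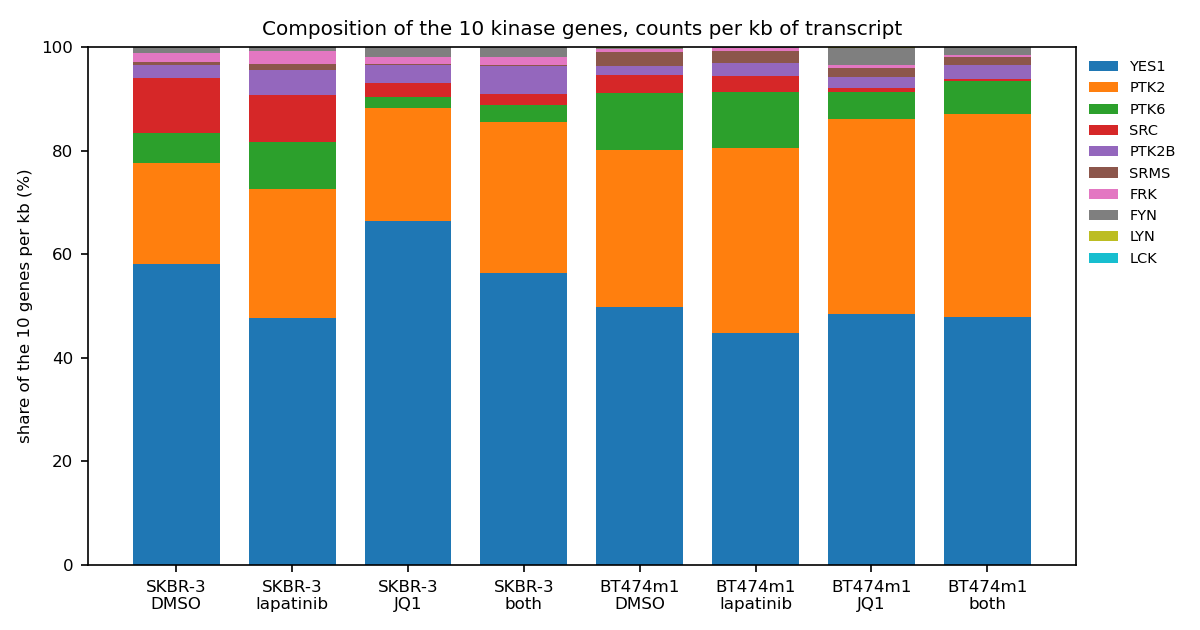
Share of each kinase gene, in percent, of the summed level of the 10 genes per kb of longest transcript in each of the 8 libraries. YES1 and PTK2 make up the largest parts of every bar, and SRC takes 10.7% in SKBR-3 with DMSO and 2.72% with JQ1.

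Genes that act on or with these kinases were followed as lists, whose counts are set beside the shares of all genes. The all-gene medians were -0.08 and -0.06 with JQ1 in SKBR-3 and BT474m1, and -0.08 and 0.00 with both drugs. In the list of 19 other non-receptor tyrosine kinases, 15 passed the filter, and JQ1 lowered 1 in SKBR-3 and 2 in BT474m1, beside 11.8% of all genes in each line, and raised 0, so that this list did not stand out from all genes. SYK, a kinase of immune receptor signaling also present in epithelium, was the one named in both lines: with JQ1 it went from 242 to 73.5 in SKBR-3 and BT474m1 went from 570 to 169. Its log2 fold changes were -1.71 (interval -2.04 to -1.41) and -1.75 (interval -1.93 to -1.59), and with both drugs -1.90 and -2.53. The list's medians with JQ1 were -0.01 and -0.23.

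Of the 14 negative regulators of SRC family kinases, 13 passed the filter. In SKBR-3, 2 were raised by JQ1, beside 3.75% of all genes, and 0 lowered, beside 11.8% (median 0.06). In BT474m1, 2 were raised, beside 4.81%, and 2 lowered, beside 11.8% (median -0.14). SOCS1 was past 2-fold up with JQ1 in SKBR-3 (1.89, from 43.7 to 164) and BT474m1 (1.34, from 34.4 to 88.4). It stayed under 100 in BT474m1 and was named after its values were seen. CSK, which phosphorylates the inhibitory tail, was not called with any treatment: its normalised counts were 1820, 1602, 1646 and 1055 in SKBR-3 and 1558, 999, 1094 and 834 in BT474m1 (it was named after its values were seen). PAG1, the membrane adaptor that recruits CSK, exceeded its lapatinib level in each line once JQ1 was added, at 321 against 146 and 391 against 80.7, log2 fold changes of 1.13 (interval 0.89 to 1.39) and 2.26 (interval 2.01 to 2.55). Lapatinib alone against DMSO had put PAG1 at -0.52 in SKBR-3 and -1.32 in BT474m1. Both drugs against DMSO gave 0.61 and 0.94, called in neither line, and JQ1 alone gave 0.61 and 1.63.

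Of the 12 phosphatases that act on SRC family kinases, 10 passed the filter, and with both drugs 2 were raised in SKBR-3, beside 10.8% of all genes, and 1 was lowered, beside 20.8%. In BT474m1, 1 was raised, beside 14.2%, and 0 were lowered, beside 15.3% (medians 0.35 and 0.25). PTPN6, which encodes SHP-1, rose in each line with both drugs, at 861 against 339 with DMSO in SKBR-3 and 1631 against 523 in BT474m1, log2 fold changes of 1.34 (interval 1.19 to 1.5) and 1.64 (interval 1.54 to 1.74).

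All 28 scaffolds and substrates of FAK and SRC at adhesions passed the filter. In SKBR-3, 2 were raised by JQ1 and 4 lowered (median 0.22), beside 3.75% and 11.8% of all genes, and in BT474m1 1 was raised and 5 were lowered (median -0.06), beside 4.81% and 11.8%. With both drugs 5 were raised in each line, beside 10.8% and 14.2%, and 5 and 4 were lowered, beside 20.8% and 15.3%. With 28 genes, these counts are near the all-gene shares. NEDD9, a docking protein related to p130Cas, rose with JQ1 by 1.14 and 1.12 on the log2 scale, to 1513 and 818. EFS, another docking protein of that family, was past 2-fold down with JQ1 in SKBR-3 and BT474m1 (-3.47 and -1.10), but stayed under 100 in SKBR-3 and was named after its values were seen.

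The tensins TNS1 and TNS3, which tie integrins to actin, fell with JQ1. TNS1 stood at 901 with DMSO and 316 with JQ1 in SKBR-3, and at 491 and 208 in BT474m1. TNS3 stood at 775 and 246 in SKBR-3, and at 1598 and 718 in BT474m1. With both drugs against DMSO, LPXN (1.24 and 1.28), PEAK1 (1.96 and 1.08) and GRB7 (2.76 and 1.06) rose on the log2 scale in SKBR-3 and BT474m1. GRB7, an adaptor that binds FAK and lies beside ERBB2, stood at 34802 in SKBR-3 with both drugs against 5154 with DMSO. Since the lists were chosen with earlier results known, these counts are a description.

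Of the 14 PTK6 substrates, 13 passed the filter. In SKBR-3, 1 was raised by JQ1 and 2 lowered (median -0.02), beside 3.75% and 11.8% of all genes, and in BT474m1 0 were raised and 3 lowered (median -0.28), beside 4.81% and 11.8%. The adaptor STAP2 (-2.33 and -1.09 on the log2 scale) and the transcription factor STAT5A (-1.76 and -2.02) were past 2-fold down in SKBR-3 and BT474m1. STAP2 stayed under 100 in SKBR-3 and STAT5A in both lines (5.23 with DMSO in BT474m1), so that neither met the rule for naming and both were named after their values were seen.

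Checks on the drugs themselves were mixed. Of the 4 BET inhibitor markers, ZMYND8, a gene lowered by BET inhibitors, fell with JQ1 by 1.44 and 2.16 on the log2 scale in SKBR-3 and BT474m1. HEXIM1 (0.81 and 1.27) and SERPINI1 (0.94 and 1.36) passed 2-fold up only in BT474m1, and ZCCHC24 (0.44 and 0.83) in neither line. ERBB3, a receptor partner of HER2, rose with lapatinib by 1.45 and 1.15, and of the 4 ERBB receptors lapatinib raised 3 in SKBR-3, beside 11.1% of all genes, and 1 in BT474m1, beside 14.0%.

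**Figure D4:**
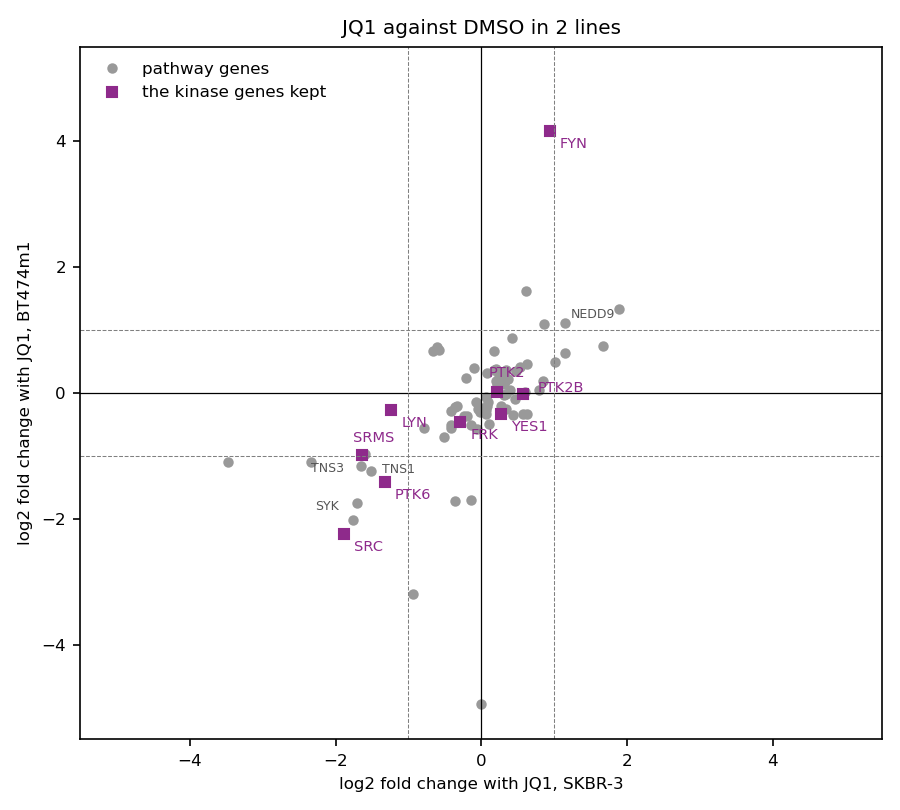
Log2 fold change with JQ1 against DMSO in SKBR-3 (horizontal axis) and BT474m1 (vertical axis) for the 9 kinase genes kept (purple squares) and the kept genes of the 5 pathway lists (grey circles); dashed lines mark 2-fold. SRC and PTK6 lie past 2-fold in the lower left with SYK, TNS1, TNS3, EFS, STAP2 and STAT5A, and FYN lies apart at the top with 4.17 in BT474m1. NEDD9 and SOCS1 lie past 2-fold in the upper right.

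The genes whose pattern over the 8 libraries was most like that of PTK6, SRC, FYN and SRMS were listed by Pearson r of the log2 values less the mean of the line. The search ran over the 9841 genes at most with a value of 100 or more in a library of each line. The libraries share a line and a drug, and r is a description over 8 points. For PTK6 they were KCNJ11, a potassium channel subunit, and ZMYM3 (0.99), then ANO1, ZNF41 and BCAS1 (0.98). For SRC they were TYRO3 (0.996), a receptor tyrosine kinase, then MTMR2, ZNRD1, UFC1 and PHF23 (0.99). For FYN they were ZNF525 (0.99), PIGH, ARPC5, C3orf58 and ELOVL7 (0.98), and for SRMS ATP6V0A4, ANKRD22 and APOOL (0.99), ZNF32 and CMBL (0.98). Among the kinases, r was 0.93 for PTK6 with SRMS, 0.81 for PTK6 with SRC and -0.88 for SRC with FYN. It was 0.77 for SRC with SRMS, -0.78 for PTK6 with FYN and -0.59 for SRMS with FYN. SRC, FYN and SRMS were chosen for 2-fold changes in these same libraries, so r between the kinases is partly set by that choice.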

How the data were processed

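Poly(A) RNA was sequenced in 8 libraries, 1 for each of 2 lines and 4 treatments, grouped by their labels. The labels name both a stranded and an Illumina kit, so whether strand was kept is uncertain. Each deposited table holds a signal per gene: RSEM read counts that the authors scaled to an upper quartile of 1000, not divided by length. The submitters' processing notes name hg19, RSEM, SAMtools 1.2, Picard 1.88, R 3.2.2, DESeq and DESeq2 1.12.3, whereas the study's methods name hg38, STAR and Salmon, and which of these apply to the tables is uncertain.

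The value of 1 read (0.471 to 0.766 units) was recovered as the step between values. All 80 values of the 10 kinases were whole reads within 0.01, as were 83.5% to 84.8% of all values above 0, and the floor of 3 reads was 1.41 to 2.30 units. Rows without a symbol (29) stayed in the tables. A gene was kept where any library reached a value of 10, which left 14429 and removed 6102. Fold changes are on log2(value + 1), which understates the change of low genes, and were called at 2-fold. Each of the 95% intervals (Clopper-Pearson) covers counting error only, since each group held 1 library. Amplified reads were not collapsed to molecules, so the intervals may be too narrow even for that error. Intervals of a departure from the sum are a normal approximation from the reads of the 4 libraries.

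The 10 kinases, the 11 gene lists (119 entries) and the tests were chosen with earlier results of these data known. The result of 1 list is not reported here. All kinases are described. A gene of a list is named if it changed at least 2-fold the same way in both lines and reached 100 in each line in a library compared, and the 5 genes most like PTK6, or like a kinase changed 2-fold in both lines, are named.

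Transcript lengths came from GENCODE on GRCh38. Alternatives were a pseudocount of 10, median of ratios scaling, equal totals, no filter or one at 100, and coding length. Calls at 1.5-fold, or only with an interval excluding no change, were added after seeing the data. On simulated data for JQ1 against DMSO in SKBR-3, with 12259 genes, 200 of 200 genes changed 4-fold were called and 95.3% of intervals of unchanged genes held no change. In BT474m1, with 12923 genes, 199 of 200 and 94.7% were. Of the unchanged genes, 15 in SKBR-3 and 6 in BT474m1 were called. Reads were simulated with counting error alone, so this checks the code and not the spread between cultures. Fits used scipy 1.17.1, pandas 2.3.3 and numpy 2.4.6 in Python 3.11.15, and figures matplotlib 3.10.9.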

Additional observations from a re-analysis of the deposited data

Results flagged for a closer look

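YES1 and PTK2 had changes of opposite sign in the lines, each with a counting interval that excluded no change, and the difference between lines was not tested because each group held 1 library. With JQ1 against DMSO, YES1 in SKBR-3 was at 0.27 on the log2 scale and BT474m1 at -0.34. For the combination against DMSO the values were 0.26 and -0.17, and against lapatinib 0.30 and -0.12. PTK2, with both drugs against lapatinib, was 0.28 in SKBR-3 and -0.076 in BT474m1. All 8 values are well under 2-fold.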

How the results depend on the processing

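Within a line, no paired analysis was possible because each group held 1 library, and for the same reason no replicate could be left out. A fit over both lines with the line as a block, which would take the lines as replicates, was not run. The spread between cultures is not in the counting intervals. Scaling shifted the median of all genes by over 0.1 on the log2 scale in 3 comparisons: by -0.14 for JQ1 in SKBR-3 (equal totals), by 0.11 for both drugs against lapatinib in SKBR-3 and by -0.15 between the lines (median of ratios). No called value of a kinase changed sign. Of the 99 changes of single kinases, 6 changed sign under a scaling, all uncalled and at most 0.084 in size: with lapatinib in SKBR-3 SRC (0.004 to -0.013 and -0.049), with both drugs FRK (0.084 to -0.003), with JQ1 in BT474m1 PTK2 (0.019 to -0.006) and PTK2B (-0.010 to 0.029), and against JQ1 alone in SKBR-3 SRC (-0.045 to 0.011 and 0.013) and YES1 (-0.014 to 0.042 and 0.044). Of 33 calls of a kinase, 9 ended under a pseudocount of 10 or a scaling. Of the counts recomputed, 240 stayed within 1.5 times and 39 did not, and the cause was not tested except where a higher filter leaves fewer genes.

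With a pseudocount of 10, in SKBR-3, JQ1 lowered 2 kinases in place of 4, both drugs raised 1 in place of 2 and lowered 1 in place of 2, and 0 in place of 1 were above JQ1 alone. In BT474m1, 0 in place of 2 were then below JQ1 alone. Under median of ratios scaling, JQ1 raised 1 in SKBR-3 in place of 0 (FYN), and both drugs lowered 1 in place of 2. Under equal totals, both drugs raised 1 in SKBR-3 in place of 2, and 1 in place of 2 were below JQ1 alone in BT474m1. With a filter at 100, 0 in place of 1 were above JQ1 alone in SKBR-3, and in BT474m1 lapatinib lowered 0 in place of 1 and 1 in place of 2 was below JQ1 alone. Requiring an interval that excludes no change left 0 in place of 1 above JQ1 alone in SKBR-3. At 1.5-fold in SKBR-3, lapatinib raised 5 in place of 2, JQ1 1 in place of 0, and 4 in place of 1 were above JQ1 alone. At 1.5-fold in BT474m1, lapatinib raised 1 in place of 0, both drugs 2 in place of 1, 4 in place of 1 were below lapatinib alone, and 1 in place of 0 was above JQ1 alone. YES1 remained highest in 8 of 8 libraries per coding kb.

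For the lists, the numbers changed against DMSO moved as follows. Among other non-receptor tyrosine kinases, the filter at 100 left 0 of 1 with lapatinib in SKBR-3. In BT474m1 it left 1 of 2 for lapatinib, 1 of 2 for JQ1 and 2 of 5 with both, where a pseudocount of 10 left 0 with lapatinib and 3 with both. Among negative regulators, the filter at 100 left 1 of 2 for lapatinib in SKBR-3, 2 of 4 with JQ1 and 0 of 1 with both in BT474m1, and a pseudocount of 10 or equal totals left 1 of 2 with JQ1 in SKBR-3. Among adhesion genes, a pseudocount of 10 left 2 of 4 for lapatinib in SKBR-3, and the filter at 100 left 0 of 2 in BT474m1. Among PTK6 substrates in BT474m1, a pseudocount of 10 left 0 of 1 with lapatinib and 1 of 2 with both, median of ratios gave 2 with lapatinib, and the filter at 100 left 0 with lapatinib, 1 of 3 with JQ1 and 1 with both.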

Other observations

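The genes beside PTK6 and SRMS on chromosome 20 did not all follow them. EEF1A2, a translation elongation factor 2 genes away from PTK6, had normalised counts of 1303 with DMSO and 786 with JQ1 in SKBR-3 and 4344 and 2518 in BT474m1, log2 fold changes of -0.73 and -0.79. PPDPF, the next gene to PTK6, was 0.46 and 0.26 higher with JQ1 on the same scale, and HELZ2, the second gene beyond SRMS, 0.80 and 0.65 higher. FNDC11, which lies between SRMS and HELZ2, was at -0.78 and 0.27, with values of 0 to 17.5 in the 8 libraries. None of these 4 genes was called with JQ1, and their order was taken from the GRCh38 annotation. They were chosen for their position.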
